A study of Mus musculus with 18 samples.

Results

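Ide and 6 genes around it on mouse chromosome 19 were followed in isolated pancreatic islets: Tnks2, Fgfbp3, Btaf1, Cpeb3, March5, Ide and Exoc6, in their order along the chromosome. They are 7 of the 24346 gene symbols listed for each library, and were picked by position. Not every gene of the interval is described. The interval itself was picked because Ide and Fgfbp3 lay near 50% of their floxed level in deleted islets of every condition, so the genotype values below describe that choice and carry no test. All 7 passed the filter on low values, at least 1 FPKM (fragments per kilobase of transcript, scaled to the mapped fragments of the library) in at least 3 of the 18 libraries, as did 12234 genes in all.

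The 18 libraries came from C57BL/6 mice that carried either a deletion of exon 2 of Cdh13 or the same exon flanked by loxP sites, here called deleted and floxed. The series' design text calls the floxed mice wild type. For each genotype there were 3 libraries from mice aged 8 weeks and 3 from mice aged 14 weeks, all fed normal chow. A further 3 per genotype came from mice aged 14 weeks that had eaten a high-fat diet for their last 6 weeks. No Cre driver is named in the labels. They also do not say whether deleted and floxed mice were littermates, so the deletion cannot be told apart from any other difference between the mice of the 2 genotypes. Nor do they say that replicates were separate animals, so each p measures the spread between these libraries.

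Insulin-degrading enzyme, the product of Ide, is a zinc metallopeptidase of the M16 family that cuts insulin, glucagon, amylin and amyloid beta peptide. FGF-binding protein 3, the product of Fgfbp3, is a secreted carrier that binds fibroblast growth factors. In C57BL/6J mice, the copy number of a segment that carries Ide and Fgfbp3 is known to vary between individuals. Per the labels the strain was C57BL/6, with no substrain, and genomic DNA was not analysed here. The other 5 members have unrelated roles. TNKS2 is a tankyrase, which attaches ADP-ribose chains to proteins such as axin, and BTAF1 is an ATPase that removes TBP from DNA. CPEB3 binds mRNA and regulates its translation, MARCH5 is a ubiquitin ligase of the mitochondrial outer membrane, and EXOC6 is a subunit of the exocyst, which tethers secretory vesicles at the plasma membrane.

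The members span 850 kb (mm10). Tnks2 lies at 36834129 to 36893477 on the plus strand, Fgfbp3 at 36917550 to 36919599 on the minus strand and Btaf1 at 36926079 to 37014057 on the plus strand, with 6.48 kb between the last 2. Cpeb3 (37019341 to 37207620, minus) and March5 (37207540 to 37224457, plus) stand head to head and overlap by 81 bases. Ide (37268743 to 37334544, minus) lies 349 kb beyond Fgfbp3, and Exoc6 (37536763 to 37684052, plus) lies last. The preparation does not mark the strand, so reads from overlapping genes cannot be told apart: A330032B11Rik lies inside Cpeb3, and the pseudogene Rpl10-ps6 lies inside Ide.

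A pair of upstream regions is shown, 250 bases each (RefSeq, GRCm38.p6, 5′ to 3′ on the strand of the gene, ending just before the annotated start). The region of Fgfbp3 (chr19:36919600-36919849) is shown because, among the members, this gene differed most between genotypes. That of March5 (chr19:37207290-37207539) is shown because it also holds a start listed for Cpeb3, 69 bases from that of March5 on the opposite strand. Capitals mark matches on either strand to the motifs searched. These were the GC box (GGGCGG), the CCAAT box (CCAAT), the E box (CACGTG) and the TATA box (TATAAA).
Fgfbp3: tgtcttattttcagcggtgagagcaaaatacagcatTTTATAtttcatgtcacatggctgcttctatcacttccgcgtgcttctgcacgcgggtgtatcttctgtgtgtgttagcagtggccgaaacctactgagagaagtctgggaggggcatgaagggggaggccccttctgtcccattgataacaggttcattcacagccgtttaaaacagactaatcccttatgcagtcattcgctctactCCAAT
March5: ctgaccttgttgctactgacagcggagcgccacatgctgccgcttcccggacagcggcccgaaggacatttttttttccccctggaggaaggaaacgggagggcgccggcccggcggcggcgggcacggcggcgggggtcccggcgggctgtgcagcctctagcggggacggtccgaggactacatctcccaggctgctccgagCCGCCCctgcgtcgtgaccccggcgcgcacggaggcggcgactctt
The region of Fgfbp3 held 1 match to CCAAT and 1 to TATAAA, at 5 and 214 bases before the start, and none to the other motifs. Of 32851 such regions in the table, 33.8% held CCAAT and 12.4% held TATAAA. The March5 region held 1 match, to GGGCGG, which 32.7% of regions held, and 71.2% of its bases were G or C, against 47.2% for Fgfbp3. No matches overlapped. The region listed for Ide is not printed, because RefSeq places its start 3931 bases upstream of the start of the GENCODE transcript.

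In floxed islets Ide stood at about 50 FPKM in every condition, and in deleted islets at about 26. In the 3 floxed libraries of 8 weeks Ide measured 49.6, 49.3 and 47.7 FPKM, and in the 3 deleted ones 26.6, 25.1 and 27.5 FPKM. At 14 weeks on chow the floxed libraries measured 52.1, 48.5 and 48.4 FPKM and the deleted ones 24.4, 25.1 and 25.7 FPKM. On the high-fat diet the floxed libraries measured 52.7, 53.3 and 48.3 FPKM and the deleted ones 26.2, 25.9 and 25.2 FPKM. The lowest of the 9 floxed libraries (47.7 FPKM) thus lay far above the highest of the 9 deleted ones (27.5 FPKM), with no intermediate library. Pooled over conditions, the floxed mean was 50.002 ± 2.13 FPKM and the deleted mean 25.7 ± 0.928 FPKM (SD, n = 9 each). Expressed as a percentage of the floxed mean, deleted Ide was 54.0% ± 1.59 (SE) in 8-week mice, 50.5% ± 1.45 in 14-week chow-fed mice and 50.04% ± 1.62 in those fed the high-fat diet. Within each group of 3 the coefficient of variation of Ide ran from 1.92% to 5.29%.

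Fgfbp3 showed the same split at a lower level and with more scatter. At 8 weeks its floxed values were 9.84, 7.18 and 5.82 FPKM and its deleted values 1.76, 3.22 and 2.80 FPKM. At 14 weeks on chow the values were 6.99, 5.20 and 5.67 FPKM against 2.46, 3.16 and 2.40 FPKM. With the high-fat diet Fgfbp3 measured 6.29, 7.71 and 6.63 FPKM against 3.12, 3.45 and 3.30 FPKM. No deleted library reached the lowest floxed one, and the widest spread was among the floxed libraries of 8 weeks. As a percentage of floxed Fgfbp3, the deleted mean was 34.1% ± 7.78 (SE), 44.9% ± 5.75 and 47.8% ± 3.29 in the same order. Of 12234 genes, 7 (0.0572%) had all 9 deleted libraries below all 9 floxed ones, and Ide and Fgfbp3 were among these 7 by the choice of the members. Of the same genes, 24 (0.196%) had deleted libraries below floxed ones without overlap in each of the 3 conditions.

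**Figure D1:**
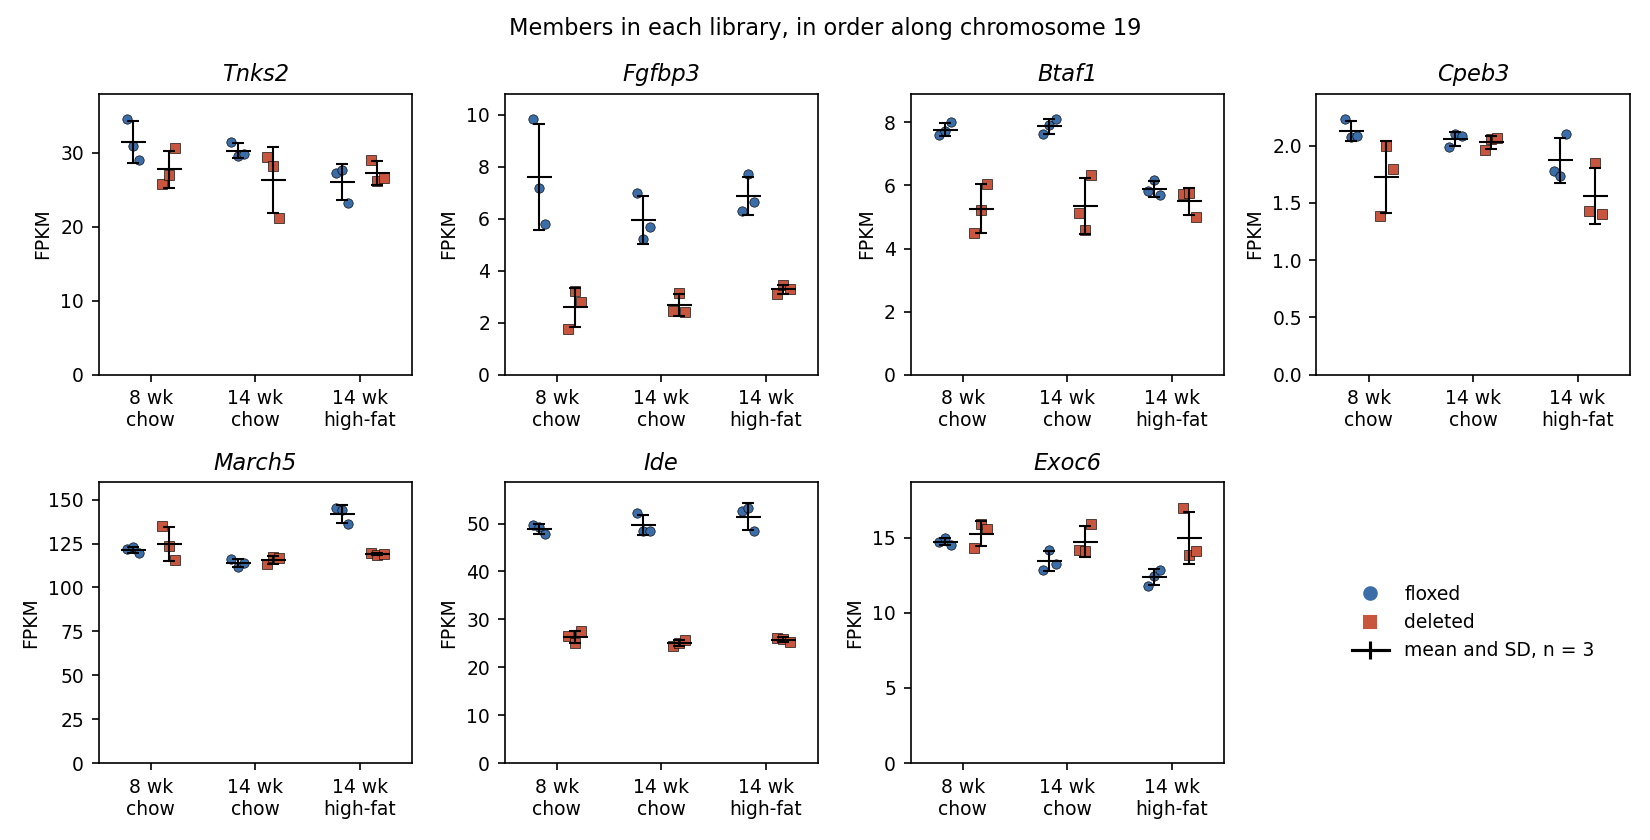
FPKM of the 7 members in each of the 18 libraries, by age and diet, with floxed libraries as circles, deleted libraries as squares and bars for the mean and SD (n = 3). Ide and Fgfbp3 separate by genotype in every condition, Btaf1 only on chow, and the floxed March5 libraries on the high-fat diet (136 to 145 FPKM) lie above every other March5 library.

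A further transcript of the interval showed the split. 4931408D14Rik is a long noncoding RNA gene at 37258423 to 37264095, between March5 and Ide and 4.65 kb from Ide. It is no member, and is described because it lies inside the interval, after its values were seen. It was too low for the filter, with 1 of 18 libraries at or above 1 FPKM, and so has no test. Floxed libraries measured 0.745, 0.488 and 0.615 FPKM at 8 weeks, 0.634, 0.295 and 0.642 FPKM at 14 weeks on chow, and 0.725, 0.484 and 1.26 FPKM on the high-fat diet. Deleted libraries measured 0.133, 0.0474 and 0.211 FPKM, then 0.227, 0.0942 and 0.0852 FPKM, then 0.158, 0.257 and 0.0758 FPKM. All 9 deleted libraries lay below all 9 floxed ones, and the deleted mean was 21.9% of the floxed mean. Other non-member genes examined inside the interval were Kif11, A330032B11Rik and 1700122C19Rik. Kif11, a mitotic kinesin gene, ran from 0.0845 to 0.741 FPKM in floxed and from 0.0870 to 0.425 FPKM in deleted libraries. A330032B11Rik reached at most 0.302 FPKM, and 1700122C19Rik was listed at 0 throughout.

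**Figure D2:**
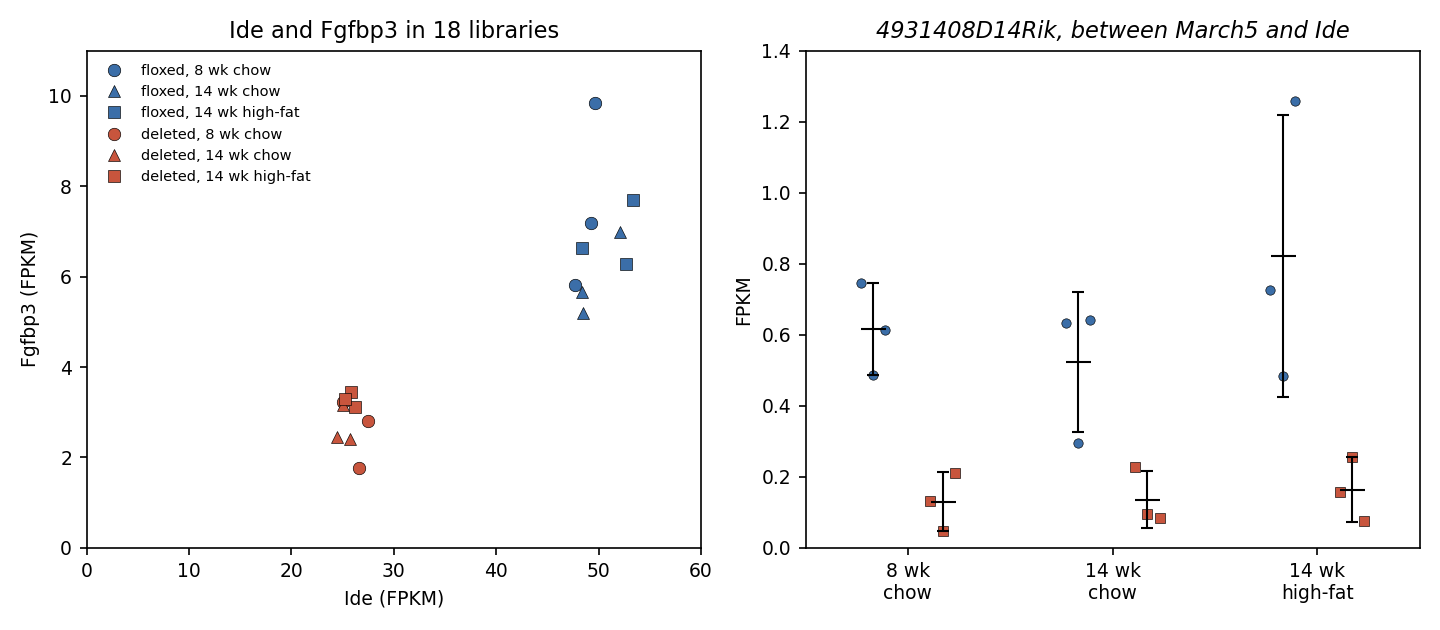
Left, Fgfbp3 against Ide (FPKM) in 18 libraries, coloured by genotype and shaped by condition. Right, 4931408D14Rik (FPKM) by condition, floxed as circles and deleted as squares, with mean and SD (n = 3). The genotypes form separate clouds on the left, and all 9 deleted libraries lie below all 9 floxed ones on the right.

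Btaf1, the gene next to Fgfbp3, split by genotype on chow and not on the high-fat diet. Its 8-week values were 7.59, 7.73 and 8.00 FPKM (floxed) against 4.51, 5.23 and 6.06 FPKM (deleted). At 14 weeks on chow it measured 7.63, 7.91 and 8.11 FPKM against 5.12, 4.60 and 6.33 FPKM. On the high-fat diet it measured 5.82, 6.16 and 5.69 FPKM against 5.73, 5.75 and 5.01 FPKM, and the groups overlapped. Its deleted level was 67.7% ± 5.87 (SE), 67.9% ± 6.60 and 93.3% ± 4.68 of the floxed level in these conditions. Btaf1 thus stood between Ide and the remaining members on chow and near its floxed level on the diet.

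The remaining 4 members lay between 81.1% and 121% of their floxed level. In the same order of conditions, deleted Tnks2 was at 88.3% ± 6.48 (SE), 86.8% ± 8.66 and 105% ± 6.69 of floxed Tnks2, without overlap at 14 weeks on chow. Cpeb3 was at 81.1% ± 8.69, 98.6% ± 2.35 and 83.5% ± 9.18, without overlap at 8 weeks. March5, head to head with Cpeb3, was at 103% ± 4.63 and 102% ± 1.58 on chow and at 83.9% ± 1.73 on the high-fat diet, where the groups did not overlap. Exoc6 was at 104% ± 3.42, 109.6% ± 5.43 and 121% ± 8.75, and its groups did not overlap on the high-fat diet. Deleted libraries lay below floxed ones without overlap for 4 of 7 members in 8-week mice, 4 in chow-fed 14-week mice and 3 in mice fed the high-fat diet. Of all tested genes 9.35%, 7.36% and 15.2% did so, and 16.4% lay above without overlap on the high-fat diet, as Exoc6 did. Ide and Fgfbp3 are in each of these counts by the choice of the interval, so the counts cannot be compared fairly with those shares. The others were Btaf1 and Cpeb3 at 8 weeks, Btaf1 and Tnks2 at 14 weeks on chow, and March5 on the high-fat diet. On the scale of log2(FPKM + 1), which understates the change of low genes, the genotype differences over the 3 conditions were -0.93 (SE 0.0343) for Ide, -1.02 (SE 0.0935) for Fgfbp3 and -0.36 (SE 0.0605) for Btaf1. They were -0.11 (SE 0.0600) for Tnks2, -0.13 (SE 0.0635) for Cpeb3, -0.06 (SE 0.0322) for March5 and 0.14 (SE 0.0474) for Exoc6. The members between Fgfbp3 and Ide, 349 kb apart, thus did not share the size of their difference.

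FPKM are per length of transcript, so levels can be ordered between genes. In floxed islets March5 stood highest in every condition (113.8 to 142 FPKM as group means), followed by Ide, Tnks2 (26.0 to 31.5) and Exoc6 (12.4 to 14.7), with no overlap between neighbours in that order. Btaf1 and Fgfbp3 came next and overlapped at 8 weeks, and Cpeb3 was lowest (1.87 to 2.13). In deleted islets Ide and Tnks2 overlapped in every condition. Ide exceeded Tnks2 in 9 of 9 floxed libraries and in 2 of 9 deleted ones. The ratio of Ide to Tnks2 in the same library was 1.73 ± 0.207 in floxed and 0.959 ± 0.111 in deleted libraries (SD, n = 9 each). Despite their adjoining starts, March5 exceeded Cpeb3 by 53.1 to 97.2 times across the 18 libraries (median 60.6).

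To set the members against their surroundings, the 20 nearest genes with a row on each side of the interval and 4 non-members inside it were examined. Of these 44 genes, 17 passed the filter, none of them inside the interval. Over the mean of the 3 conditions, 3 were higher and 4 lower in deleted islets (limma, adjusted p below 0.05). Of all tested genes 3.61% were called, 1.23% higher and 2.39% lower. The 4 lower genes were the interferon-induced genes Ifit2 (-0.41, adjusted p = 0.0458), Ifit3 (-0.91, 0.0387), Ifit3b (-0.77, 0.00190) and Ifit1 (-0.53, 0.00709). In that order these 4 were at 0.04, -0.12, -0.39 and 0.20 at 8 weeks. At 14 weeks they were at -0.56, -1.10, -0.94 and -0.72 on chow and at -0.70, -1.51, -0.97 and -1.06 on the high-fat diet. They lie in one cluster on the side of Tnks2, within the 2360 kb that the examined genes reach before the interval. Genes of one cluster may vary together, so these 4 calls need not be separate findings. Mean Ifit2 was 0.805 (SD 0.576) for floxed and 0.302 (SD 0.104) for deleted islets, in FPKM. It passed the filter through its floxed libraries only, so for Ifit2 the filter itself favoured a lower deleted level. Ifit3 averaged 4.14 (SD 3.49) against 1.27 (SD 0.347), and Ifit3b 2.39 (SD 0.972) against 0.942 (SD 0.307). The 3 higher genes were the transporter gene Slc16a12 (0.17, adjusted p = 0.0306), Rbp4, whose product carries retinol in blood (0.32, 0.00221), and Lgi1, which encodes a secreted neuronal protein (0.34, 0.0107). Rbp4 is also 1 of the 2 delta cell markers used here. Its difference was 1.12 on the high-fat diet, but -0.02 at 8 weeks and -0.13 at 14 weeks on chow. In the same order Slc16a12 was at 0.40, 0.02 and 0.08 and Lgi1 at 0.70, 0.27 and 0.05. All 7 were also called on the high-fat diet (8 of 17 genes, where 10.7% of all tested genes were called). Shares of endocrine markers in the summed FPKM are given without a test. On the high-fat diet delta cell markers held 0.218% (deleted) and 0.118% (floxed), and alpha cell markers 3.06% and 1.87%. At 14 weeks on chow the order was reversed, with delta cell markers at 0.181% (deleted) and 0.232% (floxed) and alpha cell markers at 3.37% and 3.99%. At 8 weeks the PP cell marker held 3.55% in deleted and 0.888% in floxed islets, and alpha cell markers 1.77% and 2.79%. Delta cell markers then held 0.174% and 0.178%. Their part in the genotype values of members and flanking genes was not tested. In 8-week mice (0.548% of all tested genes called) and in 14-week chow-fed mice (0.114%) none of the 17 was called by limma, with 2 and 6 at an unadjusted p below 0.05. The nearest tested genes outside the interval were Ppp1r3c, a glycogen-targeting phosphatase subunit gene (-0.05, adjusted p = 0.839), and Ffar4, a fatty acid receptor gene (0.21, adjusted p = 0.0724). Ffar4 was uncalled over the 3 conditions but was called on the high-fat diet (0.79, limma adjusted p = 7.74e-05). It was at 0.04 at 8 weeks and -0.22 at 14 weeks on chow. The count over the 3 conditions was 3 when only genes averaging 5 FPKM or more were tested, which leaves out low genes. It was 4 without replicate 1 or 2 of the deleted high-fat diet group, replicate 3 of the deleted 8-week group, replicate 3 of the floxed high-fat diet group or replicate 3 of the floxed 8-week group.

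**Figure D3:**
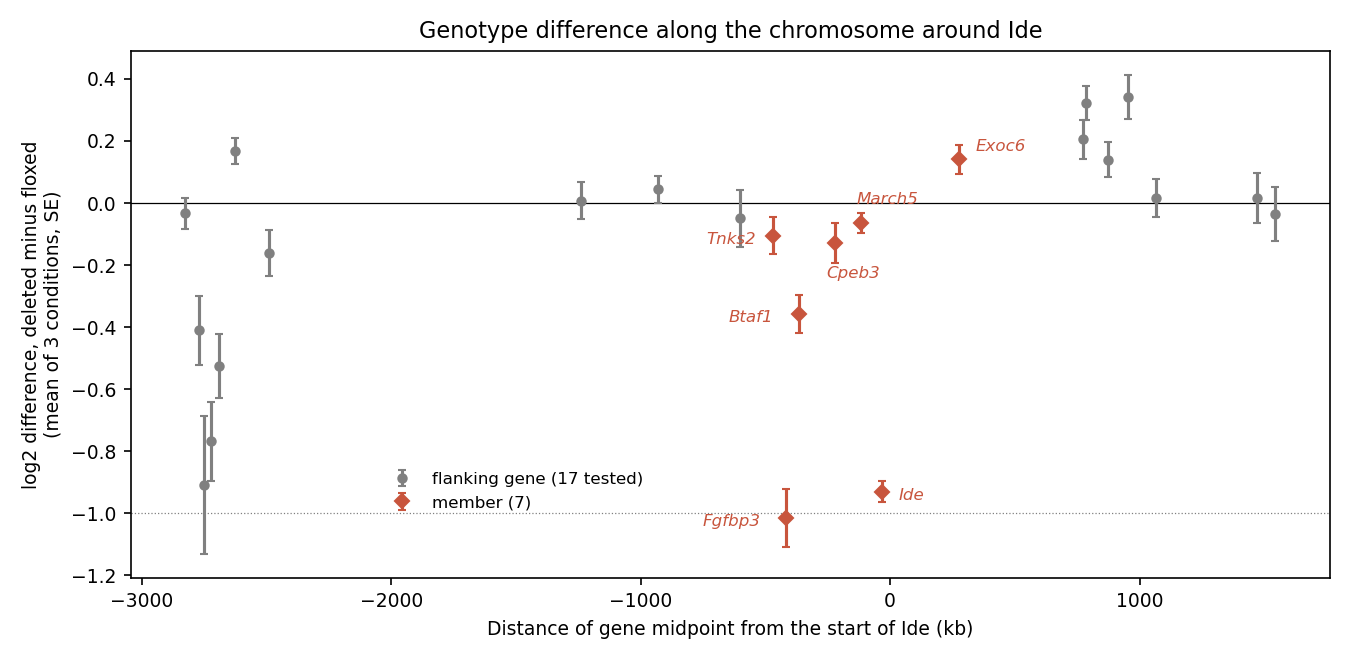
Genotype difference of log2(FPKM + 1), deleted minus floxed over 3 conditions with SE, against the distance of the gene midpoint from the start of Ide in kb. Diamonds are the 7 members and grey circles the 17 tested flanking genes. Ide and Fgfbp3 lie near -1, the members between them lie above -0.4, and the lowest grey circles at the far left are the 4 Ifit genes.

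The genes whose pattern over the 18 libraries was most like that of Ide were ranked by Pearson's r of log2(FPKM + 1), given without a test since all of them share the genotype split. Fgfbp3 was first of 12233 genes (r = 0.92), and Btaf1 was 26th (r = 0.74). By Spearman's rho they were 6th and 79th. The interval was chosen because Ide and Fgfbp3 both split by genotype, so the high rank of Fgfbp3 follows from that choice. Among non-members the 5 highest were P4ha1, a collagen prolyl hydroxylase subunit gene on chromosome 10 (r = 0.85), and Ppp2r5c, a regulatory subunit gene of protein phosphatase 2A on chromosome 12 (r = 0.85). Then came the targeted gene Cdh13 (r = 0.85) and the aldolase genes Aldoa on chromosome 7 (r = 0.84) and Aldoc on chromosome 11 (r = 0.83). Cdh13 passed the filter through its floxed libraries only, so the filter itself favoured its genotype split. By deviations from the group means, r with Ide was 0.21 for Fgfbp3, -0.06 for P4ha1, 0.42 for Ppp2r5c, -0.40 for Cdh13, 0.09 for Aldoa and -0.11 for Aldoc. For Fgfbp3 the 5 highest non-members were Tmem8b (r = 0.84), the phosphatase gene Pdxp (0.83), Aldoc (0.79), the annexin gene Anxa11 (0.78) and the kinase gene Tlk1 (0.78). By deviations their r with Fgfbp3 was 0.45, 0.24, -0.05, 0.56 and 0.52. P4ha1 averaged 32.9 ± 5.61 FPKM over the floxed and 21.9 ± 1.54 FPKM over the deleted libraries (SD, n = 9 each).

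Within a genotype no relation between Ide and Fgfbp3 passed a test. Across the 9 floxed libraries r was 0.36 (rho 0.55, exact permutation p = 0.343 and 0.133, adjusted 0.562 and 0.425). Across the 9 deleted ones r was -0.24 (rho -0.25, exact permutation p = 0.523 and 0.521, adjusted 0.627 and 0.736). Without the 2 libraries farthest from the median of Ide, r was 0.45 and -0.65. These were 2 of 12 relations of Ide with the other members, none of which passed after adjustment (lowest adjusted exact p = 0.0635, for Cpeb3 in floxed libraries, r = -0.83, or -0.41 without the 2 farthest libraries). Each set of 9 pools 3 conditions, which hold too few libraries for a value of their own.

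The diet comparison was not used to choose the members. In floxed islets the high-fat diet raised March5 and lowered Btaf1, and the other 5 members did not pass. March5 measured 116, 112 and 114 FPKM on chow and 145, 144 and 136 FPKM on the diet, without overlap (log2 0.32, SE 0.0558, limma adjusted p = 3.77e-04, n = 3 each). Btaf1 went from 7.88 ± 0.240 to 5.89 ± 0.245 FPKM (SD, n = 3 each), also without overlap (log2 -0.37, SE 0.105, limma adjusted p = 0.0132). That is 2 of 7 members, and 28.5% of all tested genes were called (15.0% higher, 13.5% lower), so the count is near the background. Tnks2 also did not overlap between the diets (31.5, 29.6 and 29.8 FPKM on chow, 27.3, 27.6 and 23.2 FPKM on the diet) but did not pass (log2 -0.21, adjusted p = 0.130). Of all tested genes, 21.8% were higher and 21.5% lower on the diet without overlap. Ide was at 0.05 (95% interval -0.07 to 0.17, adjusted p = 0.573) and Fgfbp3 at 0.18 (-0.15 to 0.52, adjusted p = 0.426).

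In deleted islets limma called none of the 7 on the diet, with 1 at an unadjusted p below 0.05, where 15.0% of all tested genes were called. March5 and Cpeb3 did not overlap between the diets, higher in the one and lower in the other, as 17.4% and 16.3% of all tested genes were. March5 measured 113, 117 and 117 FPKM on chow and 119.6, 119 and 119 FPKM on the diet (0.04, 95% interval -0.08 to 0.16, adjusted p = 0.681). Btaf1 was at 0.04 (-0.18 to 0.26, adjusted p = 0.846), Ide at 0.04 (-0.09 to 0.16, adjusted p = 0.737) and Cpeb3 at -0.25 (-0.48 to -0.02, adjusted p = 0.143). Whether the diet acted differently in the 2 genotypes was not tested, because that difference is made of the genotype differences that chose the interval. Over both genotypes March5 alone passed (0.18, SE 0.0395, adjusted p = 0.00167; 34.6% of all tested genes were called). Quantile normalization put it at 0.09 (adjusted p = 0.0394) and at 0.21 in floxed islets alone (adjusted p = 0.00263).

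Markers of other cells moved with the diet. In floxed islets all 12 tested acinar markers of 14 listed fell on the diet, and their summed level ran from 1184 to 5678 FPKM on chow and from 25.9 to 341 FPKM on the diet, with Amy2a5 at 0 in every library. Of 8 tested macrophage markers 7 fell (331 to 378 FPKM on chow, 194 to 218 FPKM on the diet). Of 10 beta cell markers 4 rose and 1 fell, and together they held 49.5% to 51.8% of summed FPKM on chow and 61.8% to 62.5% on the diet. When the fit included the average acinar marker level, the diet difference of March5 in floxed islets was 0.47 (adjusted p = 3.99e-04) and that of Btaf1 was -0.52 (adjusted p = 0.0335). Also lower in floxed islets on the diet were 2 of 2 delta, 3 of 4 tested duct, 4 of 8 endothelial, 2 of 6 alpha and 2 of 6 tested fibroblast cell markers. The part of markers other than acinar ones in these results was not tested. In bulk islets, fewer cells of a type and less RNA per cell cannot be told apart.

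No member passed the test for age, a comparison that shares the 14-week chow libraries with that of diet. From 8 to 14 weeks on chow limma called 0 of 7 in floxed islets (0 at an unadjusted p below 0.05, 4.15% of all tested genes called), 0 of 7 in deleted islets (0 unadjusted, 2.91%) and 0 of 7 over both (1 unadjusted, 7.88%). Over both genotypes Ide was at -0.02 (95% interval -0.11 to 0.06, adjusted p = 0.787). Fgfbp3 was at -0.12 (-0.36 to 0.12, adjusted p = 0.583), and March5 at -0.10 (-0.18 to -0.02, adjusted p = 0.132). The interval of Fgfbp3 is the widest of the 7. Over both genotypes 11 of 12 acinar, 7 of 8 macrophage, 4 of 6 alpha and 3 of 4 duct cell markers rose with age and 6 of 10 beta cell markers fell. With the acinar level in the fit, March5 was at -0.22 for age over both genotypes (adjusted p = 0.0322).

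**Figure D4:**
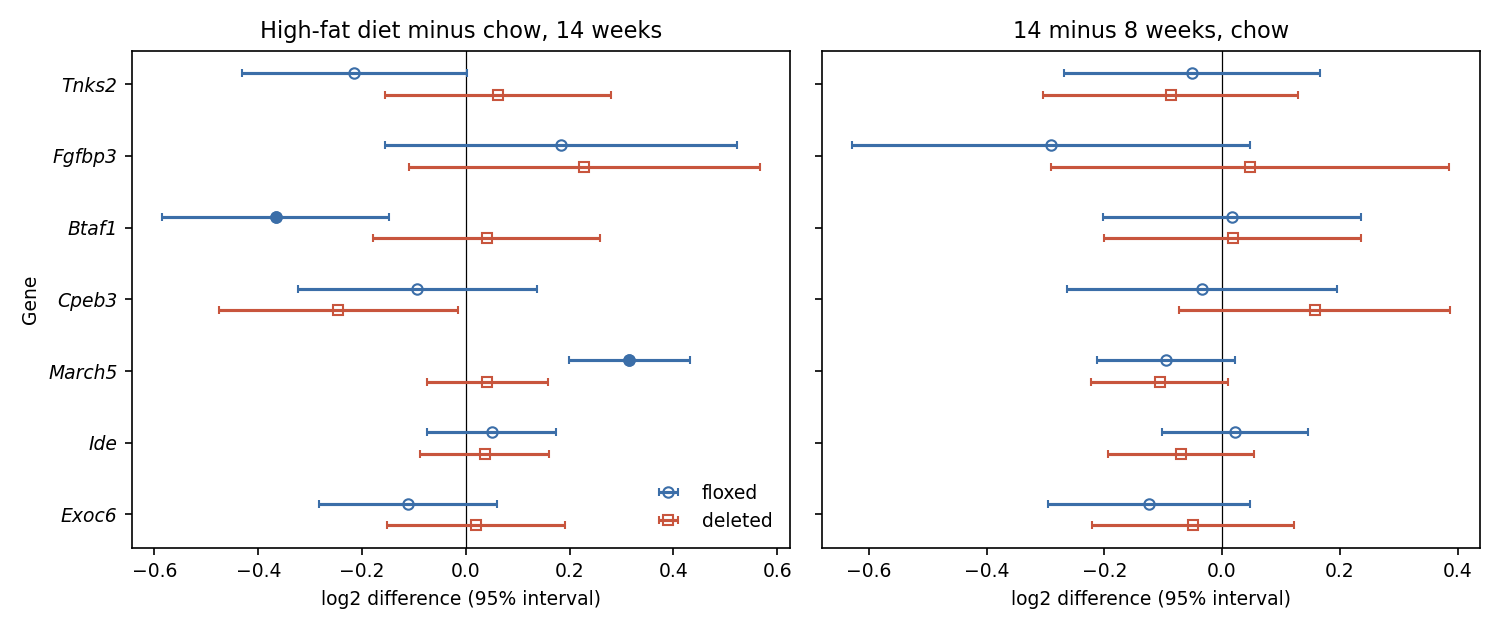
Differences of log2(FPKM + 1) for diet (left) and age (right) in each member, floxed as circles and deleted as squares, with 95% intervals and filled symbols where the adjusted p was below 0.05. March5 and Btaf1 in floxed islets on the diet are the 2 filled points, and the intervals of Ide are among the narrowest.

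Genes related to the members by family, complex or function were read as 9 lists with 62 tested genes. By genotype over the 3 conditions 1 of the 62 passed (1.61%, against 3.61% of all tested genes), with 8 at an unadjusted p below 0.05. It was Axin1, a tankyrase substrate and Wnt pathway scaffold gene (-0.44, adjusted p = 0.0165). Axin1 averaged 12.8 floxed and 6.89 deleted FPKM at 8 weeks and 15.6 and 10.3 FPKM at 14 weeks on chow, but 18.1 and 19.1 FPKM on the high-fat diet (n = 3 each). None of the 6 other M16 peptidase genes was called, with Pitrm1, a mitochondrial peptidase gene, at 0.11 (adjusted p = 0.265). None of 6 tested genes of other small-peptide peptidases was called, with Dpp4 at 0.15 (adjusted p = 0.105). Of 5 tested genes for substrates of insulin-degrading enzyme none was called either, with App, the amyloid precursor gene, at 0.13 (adjusted p = 0.0970).

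On the diet, over both genotypes, 8 of the 62 rose and 13 fell, 21 in all (33.9%, against 34.6% of all tested genes). With the acinar level in the fit 9 of the 62 were called, and 14.1% of all tested genes. The substrate genes Ins2 (0.77, adjusted p = 1.40e-07), Iapp, which encodes amylin (0.57, 3.17e-07), and Ins1 (0.60, 2.45e-06) rose, 3 of 5. App (-0.07, limma adjusted p = 0.324) and Gcg, the glucagon gene (-0.16, 0.173), were not called over both genotypes. Gcg fell in floxed islets (-0.63, limma adjusted p = 7.73e-04) and was at 0.32 in deleted islets (0.0817). Ins2 averaged 410310 ± 33924 FPKM on chow and 715768 ± 17899 FPKM on the diet in floxed islets (SD, n = 3 each), while Ide was 49.7 ± 2.13 and 51.5 ± 2.72 FPKM. Among M16 genes Pitrm1 (-0.33) and Nrd1, which encodes nardilysin (-0.20), fell, and Uqcrc1, a respiratory complex subunit gene (0.20), rose. Among 7 mitochondrial fission and fusion genes 4 fell and 1 rose, with the fission GTPase gene Dnm1l at -0.35 (adjusted p = 3.93e-05), the fusion gene Opa1 at -0.29 (4.70e-04) and Mfn2 at -0.25 (0.00283). Their median was -0.25 beside 0.00 for all tested genes, in the direction opposite to March5.

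The diet counts of the next lists are over both genotypes, where 34.6% of all tested genes were called. Of 8 other exocyst subunit genes 3 fell on the diet, which is near that share. They were Exoc5 (-0.29, limma adjusted p = 1.10e-04), Exoc2 (-0.27, 6.50e-04) and Exoc6b (-0.26, 0.00604), while Exoc6 was at -0.05 (adjusted p = 0.573). Of 16 genes of TBP, TFIID and NC2, with which BTAF1 acts, Taf10 (0.33) and Taf13 (0.26) rose and Taf8 (-0.26) fell. Both Cpeb1 (-0.19) and Cpeb4 (-0.19) fell, of 3 other CPEB genes. Fgfr1, an FGF receptor gene, fell (-0.33, adjusted p = 0.00103), 1 of 4 tested of 13 listed FGF genes. It was at -0.55 in floxed (limma adjusted p = 3.32e-04) and -0.10 in deleted islets (0.546). Of 7 tested genes for the other tankyrase and tankyrase partners 1, Axin1, rose (0.54, 0.00194), at 0.86 in deleted (adjusted p = 0.00214) and 0.21 in floxed islets (adjusted p = 0.371). With age 2 of the 62 rose and 4 fell, where 5.40% of all tested genes rose and 2.48% fell: Gcg, the glucagon gene (0.56, adjusted p = 3.93e-04), and Exoc6b (0.29, 0.0118) rose, and Ins1 (-0.34, 0.00336), Ins2 (-0.32, 0.00619) and Dpp4 (-0.21, 0.0386) were among those that fell.

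Across the series no library stood apart: summed FPKM ran from 903346 to 1394009, Pearson's r across tested genes from 0.981 to 0.991 within groups and from 0.963 to 0.990 between groups, and no 2 libraries were identical. Cdh13, the targeted gene, ran from 1.08 to 2.06 FPKM (floxed) and from 0.247 to 0.809 FPKM (deleted), without overlap. These values count fragments over all its exons, not over exon 2 alone. Ins2 held 40.2% to 52.7% of summed FPKM, and all 10 beta cell markers passed the filter.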

How the data were processed

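RNA from isolated islets was made into cDNA with SMART-Seq HT and into libraries with Nextera, per the labels' protocols. The authors deposited gene-level FPKM for each of 18 libraries, on mm10. The submitters' processing notes list Cufflinks 2.2.1, TopHat2 2.0.13, SAMtools 0.1.19 and Bowtie2 2.2.3. FPKM was inferred as the unit from the use of Cufflinks and the range of values, and the sources used here do not give the annotation or filters. Median ratios of the libraries lay between 1.0037 and 1.0079 while sums differed, so the values look rescaled. Depth is unknown, since fragment numbers are not given: the commonest ratio of low values between libraries spanned 1.39 times, within a search of at most 2-fold either way.

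The 12234 genes that reached 1 FPKM in 3 or more libraries were modelled as log2(FPKM + 1) with limma 3.58.1 (R 4.3.3, statmod 1.5.0), with 6 group means, trended and robust moderation, and Benjamini-Hochberg adjustment over all tested genes. The model was tested on simulated data. Genotype values of the members carry no test, and 1 gene of the interval is not reported here. Exact permutation was used for relations among members. The members and lists were chosen with earlier results of these data known. Named were the members, flanking genes called over the 3 conditions and the nearest on each side, up to 3 called genes per list and comparison (or the smallest p), the 5 genes most like Ide and Fgfbp3, and Cdh13. Positions and upstream regions came from RefSeq (GRCm38.p6, which is mm10), matched by symbol or synonym; all 7 members matched, March5 as a synonym. Alternatives were a fit with sample quality weights, quantile normalization, median-ratio scaling, a pseudocount of 0.1, no filter, a filter at an average of 5 FPKM, a fit of the compared groups alone, a replicate block, an acinar covariate and each library left out. Tables and figures used python 3.11.15, numpy 2.4.6, pandas 2.3.3, scipy 1.17.1 and matplotlib 3.10.9.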

Additional observations from a re-analysis of the deposited data

How the results depend on the processing

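The genotype differences of Ide (-0.95 to -0.92) and Fgfbp3 (-1.23 to -0.93) kept their sign under every alternative that gave a value; a filter at an average of 5 FPKM gives none for Fgfbp3 or Cpeb3. The calls of March5 and Btaf1 on the diet in floxed islets held under every alternative and every left-out library. Of 42 diet and age differences of members, those that changed sign were all uncalled. With the acinar covariate Btaf1 (-0.092) and Exoc6 (-0.037) did so for diet in deleted islets, and Cpeb3 (0.14) and Ide (-0.032) for age in floxed islets; 1 member was called for age over both genotypes (March5, -0.22, limma adjusted p = 0.0322) and 9 list genes for diet (14.1% of all tested genes). With quantile normalization Btaf1 (-0.010, age, deleted) and March5 (-0.026, diet, deleted) did so. With sample quality weights Tnks2 (-0.028, diet, deleted), Fgfbp3 (-0.15, age, deleted) and Btaf1 (-0.033 for age in deleted islets, -0.014 over both) did so; 2 members were called for diet over both genotypes (Fgfbp3, 0.25, limma adjusted p = 0.0455) and 1 for age (March5, -0.10, 0.0441), with 4 of 62 list genes called for genotype and 10 for age, where 7.41% and 13.9% of all tested genes were called. A filter at an average of 5 FPKM left 3 flanking genes called. By rho, 1 of the 5 genes most like Ide and 3 of the 5 most like Fgfbp3 were shared with those by r.

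Leaving out each library in turn, diet differences in deleted islets ran from -0.080 to 0.15 (Tnks2), -0.046 to 0.15 (Btaf1) and -0.069 to 0.072 (Exoc6). Age differences ran from -0.11 to 0.016 (Tnks2), -0.00066 to 0.038 (Btaf1) and -0.012 to 0.040 (Ide) in floxed islets, from -0.17 to 0.055 (Tnks2), -0.13 to 0.18 (Fgfbp3) and -0.090 to 0.11 (Btaf1) in deleted islets, and from -0.11 to 0.0018 (Tnks2) and -0.036 to 0.063 (Btaf1) over both. Members called for diet over both genotypes numbered 1 to 2 (Btaf1 when replicate 2 of the deleted 14-week chow libraries was left out, -0.21, limma adjusted p = 0.0411), flanking genes 4 to 7, list genes for genotype 1 to 3 and for age 4 to 10 (10 when replicate 3 of the deleted 8-week libraries was left out). The cause of these changes was not tested.

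Same-numbered replicates deviated together weakly at most (r from -0.16 to 0.17 over 21 pairs, 4 above 0.1, 10 closest to their own number). These r carry no test, and each comparison holds few pairs. Whether the numbers mark a shared batch or day was not tested. With a replicate block 2 members were called for diet in floxed islets and 2 list genes for genotype (1 without it). Absolute depth is unknown, which limits what can be said of low genes such as 4931408D14Rik.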
